A study of Mus musculus with 22 samples.

Results

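The regions described here are CpG-dense stretches of the mouse genome that carried almost no DNA methylation in wild-type embryos. They were chosen by a rule. The autosomes (chromosomes 1 to 19) were divided into tiles of 1 kb, and a tile was kept if it held at least 30 CpGs covered by 6 or more reads in all 12 bisulphite libraries and if its methylation level, the percent of reads in which the CpG cytosine resisted conversion, averaged below 10% in the wild types of each of 3 tissues. Of 24733 tiles with at least 30 covered CpGs, 17583 met the rule and are called members, and the other 7150 are called the other dense tiles. A wider set of 574594 tiles with at least 8 covered CpGs served as the background for every test. The wild-type levels chose the members and are given only as a description. The mutant levels took no part in the choice, but each difference between genotypes contains the wild types, so counts are also given for a choice blind to genotype, in which the mean of all 4 libraries of a tissue had to lie below 10% (17381 tiles).

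Most CpGs in a mammalian genome are methylated. CpG islands are the exception: stretches rich in C and G, in which CpGs have not been lost over evolution and which stay free of methylation in most tissues, whether or not the gene there is transcribed. Proteins with a CXXC domain, such as Kdm2a, Kdm2b and Cxxc1, bind CpGs that lack methylation, and Polycomb complexes gather at islands of silent developmental genes. The flanks of islands, called shores, are where methylation differs most between tissues.

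To show what such DNA looks like, 300 bases with the most CpGs outside annotated UTRs are given for 5 members, read from NCBIM37 (mm9) on the plus strand, with every CpG in capitals. Espnl had the largest rise in mutants, Irs2 the largest rise from below 0.5% in every tissue, and B930007M17Rik the largest fall. Kdm2a and Rplp0 are examples from lists of CXXC proteins and ribosomal proteins.
Espnl, chr1:93242095-93242394: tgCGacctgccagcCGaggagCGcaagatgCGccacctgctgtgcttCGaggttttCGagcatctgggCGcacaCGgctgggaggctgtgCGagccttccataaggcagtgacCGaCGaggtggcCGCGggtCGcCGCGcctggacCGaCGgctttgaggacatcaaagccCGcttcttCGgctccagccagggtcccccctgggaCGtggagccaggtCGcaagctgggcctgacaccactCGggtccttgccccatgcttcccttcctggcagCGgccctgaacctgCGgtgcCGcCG
Irs2, chr8:11007200-11007499: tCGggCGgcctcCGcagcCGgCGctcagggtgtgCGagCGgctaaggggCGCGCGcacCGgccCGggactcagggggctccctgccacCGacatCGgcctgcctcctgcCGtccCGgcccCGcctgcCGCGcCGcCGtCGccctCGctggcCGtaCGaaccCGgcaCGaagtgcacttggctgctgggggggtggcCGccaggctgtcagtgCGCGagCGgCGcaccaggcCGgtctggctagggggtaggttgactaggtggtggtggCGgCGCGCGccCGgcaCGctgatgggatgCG
B930007M17Rik, chr3:138868353-138868652: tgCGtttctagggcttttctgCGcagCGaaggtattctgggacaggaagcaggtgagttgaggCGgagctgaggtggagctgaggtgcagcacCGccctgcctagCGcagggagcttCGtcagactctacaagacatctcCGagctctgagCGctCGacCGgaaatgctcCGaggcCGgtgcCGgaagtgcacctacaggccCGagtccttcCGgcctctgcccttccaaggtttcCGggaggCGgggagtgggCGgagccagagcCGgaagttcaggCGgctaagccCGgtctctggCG
Kdm2a, chr19:4398267-4398566: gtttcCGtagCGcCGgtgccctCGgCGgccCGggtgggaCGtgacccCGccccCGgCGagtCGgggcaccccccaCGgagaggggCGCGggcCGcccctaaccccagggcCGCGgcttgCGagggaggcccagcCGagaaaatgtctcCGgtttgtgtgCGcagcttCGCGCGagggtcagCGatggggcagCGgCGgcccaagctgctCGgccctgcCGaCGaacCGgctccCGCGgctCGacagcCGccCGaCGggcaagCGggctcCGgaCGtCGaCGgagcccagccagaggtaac
Rplp0, chr5:116009175-116009474: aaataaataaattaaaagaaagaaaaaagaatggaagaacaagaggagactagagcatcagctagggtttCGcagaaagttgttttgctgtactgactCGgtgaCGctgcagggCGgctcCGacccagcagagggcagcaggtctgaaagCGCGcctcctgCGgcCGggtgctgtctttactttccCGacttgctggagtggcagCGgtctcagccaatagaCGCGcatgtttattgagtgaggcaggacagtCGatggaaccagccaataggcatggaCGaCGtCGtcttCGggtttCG
These windows hold 27, 40, 23, 42 and 19 CpGs in the order given. In the Espnl window all 26 covered CpGs were higher in the mutants, pooled over tissues, with a median of 5.38% in wild types and 21.1% in mutants. In the Irs2 window all 40 were higher, with a median of 0% in wild types, where the highest CpG reached 1.06%, and of 13.7% in mutants, where the lowest stood at 8.59%. In the B930007M17Rik window all 23 were lower, and the median went from 2.15% to 0.474%. The gain or loss thus ran through the whole window in these 3 members, which were picked for it. In the Rplp0 window 10 of 19 covered CpGs had no methylated read in any of the 12 libraries.

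The data came from a study of Rlf, a zinc finger protein found in a screen for modifiers of epigenetic silencing. Whole genome bisulphite sequencing was carried out on 2 wild-type and 2 MommeD28/MommeD28 samples of each of E10.5 whole embryo (all male), E14.5 liver (replicate 1 male and replicate 2 female in each genotype) and E18.5 liver (all female). MommeD28 is a null allele of Rlf induced by the mutagen ENU, and the mutants were homozygous for it in all cells. All mice were of the inbred FVB/NJ Line3 strain and all, the wild types included, were homozygous for an array of many copies of a GFP transgene under the promoter of human alpha-globin with its HS-40 enhancer. The E10.5 embryos and E18.5 livers differ in stage, tissue and sex together, which cannot be told apart between them. RNA-seq covered E14.5 liver, with 3 livers of each genotype. The H3K4me1 ChIP-seq samples of the series were not analysed here.

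Depth over the autosomes was 17.2 to 36.1 reads per CpG and was highest in E14.5 liver. Within members it was 26.6 to 50.3 reads per CpG, and a member had a median of 1452 to 2770 reads per library, so levels below 1% rest on few methylated reads. Unconverted cytosines of lambda DNA, which carries no CpG methylation, set the floor at 0.0412% to 0.0775% of reads, highest in the 2 mutant E10.5 embryos (0.0775% and 0.0658%, against 0.0583% and 0.0544% in the wild types). Mutant replicate 1 of E18.5 liver stood apart, with 65.5% methylation over all autosomal CpGs against 61.4% to 61.7% in the other 3 livers of that stage.

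The members were mostly promoters. A transcription start site (TSS) of a protein-coding gene lay in 61.8% of them, a TSS of another transcript in 4.98%, an exon without a TSS in 15.6% and an intron in 7.06%, and 10.49% lay between genes (GENCODE vM1). Of the other dense tiles only 14.8% held a protein-coding TSS and 48.0% lay at an exon. The centre of a member was a median of 359 bp from a protein-coding TSS, and 80.0% lay within 1 kb of one, against 23.96% of the other dense tiles. In all, 10766 of 21410 protein-coding genes on these chromosomes (50.3%) had a TSS in a member. Members had a mean GC content of 59.7%, against 55.2% in the other dense tiles and 47.3% in all tested tiles. Their ratio of observed to expected CpGs averaged 0.722, against 0.530 and 0.291. Most members were thus CpG island promoters by position, although 1233 of them (7.01%) lay over 10 kb from any protein-coding TSS.

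Short motifs were counted on both strands of each 1 kb tile. GGGCGG, the core of the SP1 site, was present in 86.6% of members, 53.3% of the other dense tiles and 20.1% of all tested tiles. CCGGAAG, bound by ETS factors, was present in 21.9%, 15.4% and 6.28%, and GCATGCGC, bound by NRF1, in 5.62%, 4.57% and 2.49%. Against all tiles the AT-rich motifs went the other way, but the other dense tiles were close to the members. TATAAA was present in 20.2% of members, 21.5% of the other dense tiles and 43.8% of all tiles. AGATAA, the GATA motif, was present in 21.5%, 24.3% and 40.1%. Of the other motifs searched, AAGATGGCG was present in 3.702% of members and 5.36% of the other dense tiles. CACGTG was present in 20.05% and 23.8%, CCAAT in 63.3% and 65.4%, and TGACGTCA in 3.28% and 2.08%. The sets also differ in base composition, as given above, and a match is not a bound site.

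Members lay in 12659 runs of adjacent tiles, of which 8569 were 1 tile, 3463 were 2 tiles and 627 were 3 tiles or more. The longest runs had 8 tiles. They lay at Prdm12, a regulator of sensory neurons (chr2:31490001-31498000), at Tnrc18 (chr5:143576001-143584000), and at Lbx1, a homeobox gene of muscle precursors and spinal cord neurons (chr19:45304001-45312000). Mean levels over the Prdm12 run were 1.09%, 2.88% and 2.99% in wild-type E10.5 embryo and in the liver at E14.5 and E18.5, and 1.37%, 3.59% and 3.38% in the mutants. The Tnrc18 run was at 0.0633% to 0.516% in every group, and the Lbx1 run at 0.314% to 1.18%.

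Averaged over members, methylation was slightly higher in the mutants of every tissue. In E10.5 embryo the mean level was 1.21% and 1.34% in the wild types and 1.56% and 1.64% in the mutants. In E14.5 liver it was 1.66% and 1.63% against 2.03% and 1.99%. In E18.5 liver it was 1.51% and 1.498% against 1.84% and 1.63%. In each tissue both mutants lay above both wild types. The means went from 1.28% ± 0.0909 to 1.60% ± 0.0521, from 1.65% ± 0.0234 to 2.01% ± 0.0258 and from 1.503% ± 0.00658 to 1.73% ± 0.146 (SD, n = 2 each), which are differences of 0.323, 0.366 and 0.229 points. With 2 samples a genotype an exact permutation test cannot give a two-sided p below 0.333, so these means were not tested. Without mutant replicate 1 the E18.5 difference was 0.126 points. The genotype-blind choice gave 0.260, 0.316 and 0.177 points, and subtracting the unconverted share of lambda gave 0.308, 0.370 and 0.235. Differences were larger elsewhere: the other dense tiles averaged 2.64, 2.06 and 2.07 points higher in mutants, from wild-type levels of 55.2% to 61.0%.

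**Figure D1:**
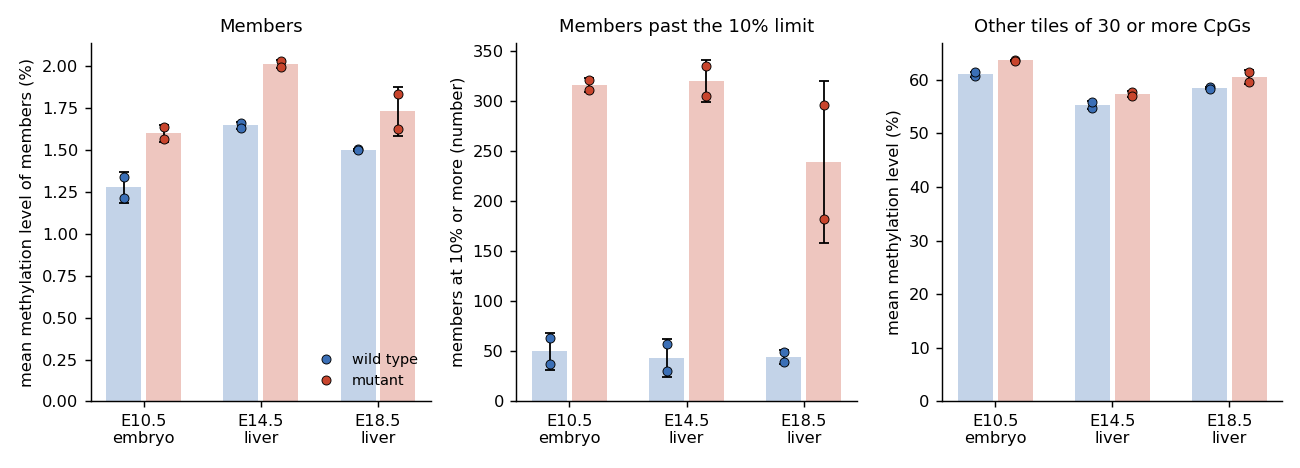
Mean methylation level of the members (left, percent), number of members at 10% or more (middle) and mean level of the other dense tiles (right, percent) in each tissue. Bars are means of 2 libraries, points the libraries (blue wild type, red mutant) and error bars the SD. In the left and right panels both mutants stand above both wild types in every tissue. In the middle panel the rule itself holds the wild types low, and the 2 mutant E18.5 livers are far apart at 296 and 182 members.

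The shift was not spread evenly. The median member differed by only 0.0617, 0.0665 and 0.0354 points (the last was 0 without mutant replicate 1 and 0.0585 without mutant replicate 2 of E18.5 liver), and a small number of members rose by much more. Members at 10% or more numbered 37 and 63 in the wild-type E10.5 embryos and 311 and 321 in the mutants, 57 and 30 against 335 and 305 in E14.5 liver, and 49 and 39 against 296 and 182 in E18.5 liver. By the mutant means 17059 members also stayed below 10% in every tissue, and 524 (2.98%) reached 10% in at least 1 tissue, 81 of them in all 3. Members were chosen on wild types, so these counts are not symmetric by construction. The reverse choice, tiles below 10% in the mutants of every tissue but not in the wild types, gave 75 tiles.

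Members that reached 10% in mutants were spread over all classes of position. Of members at a protein-coding TSS 1.89% did so, against 4.34% of those at another TSS, 5.16% of those at an exon without a TSS, 4.03% of those in an intron and 4.83% of those between genes. Members at a protein-coding TSS also had lower wild-type levels, 1.11%, 1.33% and 1.17% in the 3 tissues, against 1.55%, 2.17% and 2.06% at exons. These shares are not matched for wild-type level. Exonic members made up 27.1% of the 524 and 15.6% of all members.

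Each tile was then tested for genotype across the 12 libraries with edgeR's quasi-likelihood test on methylated and unmethylated read counts, adjusted (Benjamini-Hochberg) over all 574594 tiles and called at an adjusted p under 0.05 with no minimum change. In E10.5 embryo 375 members (2.13%) rose and 12 fell, where 0.882% of all tested tiles rose and 0.0178% fell. In E14.5 liver 308 members (1.75%) rose and 4 fell, with a background of 0.328% and 0.0124%. In E18.5 liver 196 (1.11%) rose and 9 fell, with a background of 0.395% and 0.0155%. For the mean effect over the 3 tissues, which has the most libraries behind it, 1229 members (6.99%) rose and 39 (0.222%) fell, with a background of 4.23% and 0.106%. Rises thus outnumbered falls in every tissue, among members and among all tiles. The number of calls in a single tissue moved with the libraries and the test. Against 387 calls in E10.5 embryo there were 130 without wild-type replicate 1 and 221 without mutant replicate 2. For the 312 of E14.5 liver it was 95 and 119 without wild-type replicate 1 or 2 and 143 and 125 without mutant replicate 1 or 2, while its 4 libraries fitted alone gave 743. For the 205 of E18.5 liver it was 117 and 101 without wild-type replicate 1 or 2 and 117 without mutant replicate 1. With limma the counts were 178, 61 and 98, and 722 against 1268 for the mean effect. The genotype-blind choice gave 303, 254, 137 and 1098 rises and 14, 4, 10 and 43 falls. A member holds 60.6 covered CpGs on average and a tested tile 14.1, so members have more reads behind each test, and how much of the higher share this makes was not tested. Of the other dense tiles 1169 (16.3%) rose and 47 fell for the mean effect.

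Without a test, both mutants lay above both wild types in 29.4%, 35.0% and 24.1% of members in the 3 tissues, where all tiles gave 31.5%, 34.2% and 31.2%. Both lay below in 9.57%, 11.3% and 13.4%, where all tiles gave 9.28%, 6.5% and 6.46%. Both lay above in all 3 tissues in 6.47% of members against 5.57% of all tiles, and below in all 3 in 0.290% against 0.168%. In E10.5 embryo these shares were close to the background. In both livers more members than background tiles had both mutants below, and in E18.5 liver fewer had both above. Without any effect of genotype, groups of 2 against 2 would lie apart in 0.333 of tiles, as often down as up. Every share with both mutants below is under the downward part of this, so these shares are not read as losses. The mean effect was positive in 66.6% of members and in 79.4% of all tiles. Its median was 0.18 in members and 0.16 in all tiles as a log2 change of the odds of methylation.

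Most members that rose in 1 tissue had both mutants above both wild types in the others, but fewer were also called there. Of the 375 members that rose in E10.5 embryo, both mutants lay above both wild types at 305 (81.3%) in E14.5 liver and at 286 (76.3%) in E18.5 liver. Of the 308 that rose in E14.5 liver, 240 (77.9%) did so in E10.5 embryo and 268 (87.0%) in E18.5 liver. Of the 196 that rose in E18.5 liver, 179 (91.3%) and 183 (93.4%) did so in E10.5 embryo and E14.5 liver. The tissues have separate libraries, and over all members the shares were 24.1% to 35.0%. In all 107 members (0.609%) were called as higher in each of the 3 tissues and 578 (3.29%) in at least 1, where all tiles gave 0.113% and 1.23%. A difference between tissues in the effect of genotype was called at 6 members, where 0.00644% of all tiles gave such a call.

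**Figure D2:**
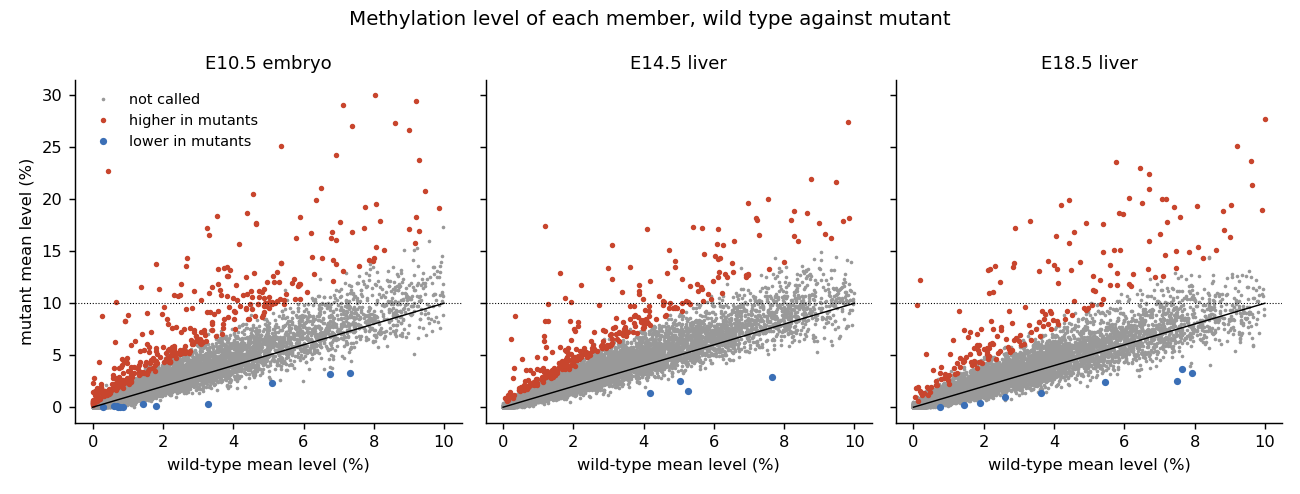
Mean methylation level (percent) of each of the 17583 members in wild types (horizontal axis, cut at 10% by the rule) and in mutants (vertical axis), 1 panel per tissue. Red points rose and blue points fell by edgeR's test, the solid line marks equal levels and the dotted line 10%. Called rises are found at all wild-type levels, and the highest reach 30.003% in E10.5 embryo, 27.4% in E14.5 liver and 27.7% in E18.5 liver.

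How often a member rose followed its level. In the genotype-blind choice, grouped by the mean of all 12 libraries, 0.585% of the 7520 members below 0.5% rose, 3.32% of those at 0.5% to 1%, 7.20% at 1% to 2%, 15.4% at 2% to 5% and 19.5% of the 1376 at 5% to 10%. A tile that gains methylation also moves to a higher group by this measure, and the test has more methylated reads to work with there. Among all 17583 members the share was 4.98% at a protein-coding TSS, 8.90% at another TSS, 12.3% at an exon without a TSS, 8.37% in an intron and 9.11% between genes, where all tested tiles of these classes gave 6.43%, 4.74%, 3.36%, 3.99% and 4.59%. These shares were not tested against each other: members are part of all tiles, and the sets differ in CpG number and level. By chromosome it ran from 4.28% on chromosome 16 to 12.2% on chromosome 12, with 10.52% on chromosome 7.

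CpGs of the members were then looked at 1 by 1. They numbered 1066290, which is 92.3% of the CpGs that the reference has in these tiles. With both libraries of a genotype pooled, 85.2% of them had no methylated read in wild-type E10.5 embryos and 84.6% in mutants. In E14.5 liver, the deepest tissue, it was 73.2% and 72.8%, and in E18.5 liver 81.0% and 79.1%. CpGs over 50% numbered 7837 in wild types and 9021 in mutants of E10.5 embryo, 5216 and 5942 in E14.5 liver, and 5900 and 6987 in E18.5 liver. CpGs over 20% likewise went from 19081 to 22393, from 17321 to 20389 and from 18340 to 21460. Members were therefore not free of methylated CpGs even in wild types: 3879 CpGs in 2043 members were over 50% in the wild types of all 3 tissues. Their depth was somewhat lower than that of all CpGs of members, with a median of 316 against 415 reads over the 12 libraries. Members were chosen on low wild types, so the higher counts in mutants are partly built in. CpGs were not counted for the genotype-blind choice. Pooled reads also differed, with 69254692 in wild types and 57409506 in mutants of E10.5 embryo. They numbered 103278079 and 87453256 in E14.5 liver, and 59663079 and 62071814 in E18.5 liver.

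Levels rose steeply at the edge of a run. In percentage points the difference between genotypes was larger outside it than inside, with its highest value 500 to 1000 bp out. In E10.5 embryo CpGs 750 to 1000 bp inside a run averaged 0.188% in wild types and 0.274% in mutants. In the last 250 bp inside they averaged 2.49% and 3.06%, in the first 250 bp outside 11.03% and 12.7%, and at 500 to 750 bp outside 53.1% and 56.4%. The difference was thus 0.0860 points at 750 to 1000 bp inside, 0.571 at the inner edge and 3.25 at 500 to 750 bp outside, its highest value, and fell to 1.88 points at 3000 to 5000 bp. In E14.5 liver it went from 0.177 points at 750 to 1000 bp inside to 2.19 points at 750 to 1000 bp outside and 1.81 points farther out. In E18.5 liver the same places gave 0.106, 2.65 and 2.26 points, and there the 2 mutants were far apart. The first 250 bp outside gave 1.67, 1.10 and 0.821 points in the 3 tissues, less than at 3000 to 5000 bp. Inside a run the difference did not fall steadily towards the centre: at 1000 to 1500 bp inside, which only the longer runs reach, it was 0.202, 0.382 and 0.258 points, over 47909 CpGs. Runs of 1 tile, 8569 of 12659, have no CpG over 500 bp from an end. Values farther inside, those at 750 to 1000 bp included, therefore come from longer runs alone. Low levels inside a run were fixed by the rule. Relative to the wild-type level the order was the other way, with larger differences inside than outside. At 750 to 1000 bp inside, E14.5 liver went from 0.409% to 0.586% and E18.5 liver from 0.347% to 0.453%. At 750 to 1000 bp outside they went from 53.1% to 55.3% and from 56.4% to 59.0%.

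**Figure D3:**
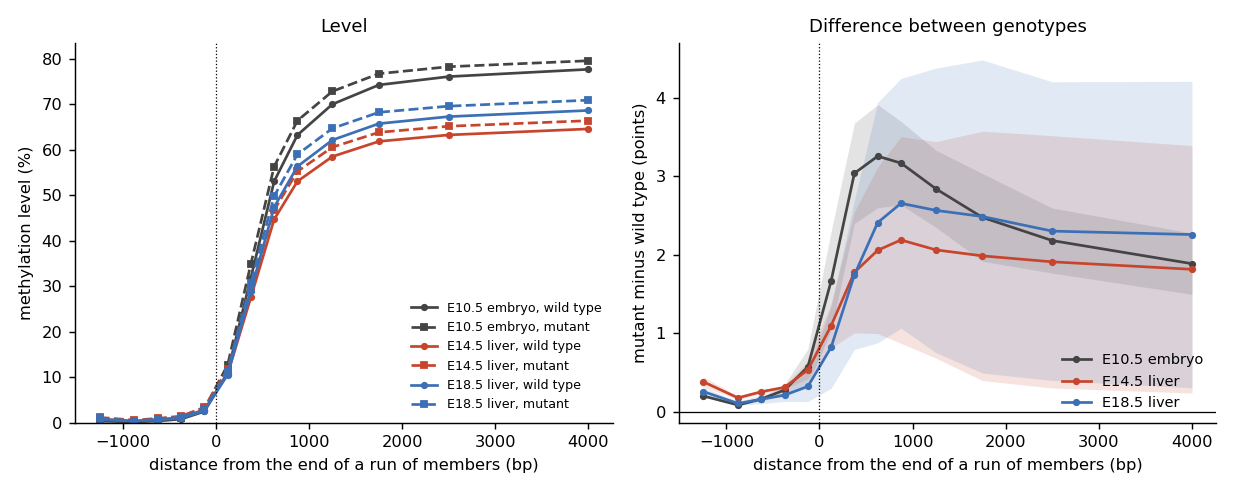
Methylation level (left, percent) and mutant minus wild-type difference (right, percentage points) of CpGs against their distance (bp) from the end of a run of members, negative inside. Lines are group means (left: solid wild type, dashed mutant) and differences of the means (right), and shading spans the lowest mutant minus the highest wild type to the highest mutant minus the lowest wild type. The difference peaks at 3.25 points 500 to 750 bp outside in E10.5 embryo.

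The share of tiles called as higher also varied with place, in another order than the size of the difference. Of the 834 members inside a run, with a member on either side, 53 (6.35%) rose and 0 fell by edgeR's test (15 were lower at an unadjusted p under 0.05, and limma called 0 as lower). Of the 8180 at the end of a run 6.80% rose, and of the 8569 without a member beside them 7.24%. Among tiles that are no members, 9.55% of the 16407 next to a member rose, 7.53% of the 9981 that were 1 tile farther out and 3.91% of the 530623 elsewhere. The mean difference in the embryo and then in the liver at E14.5 and E18.5 was 0.181, 0.363 and 0.241 points inside a run, 2.23, 1.51 and 1.67 points next to a member, 2.41, 1.87 and 2.52 points 1 tile farther out, and 1.59, 2.02 and 2.34 points elsewhere. Members inside a run were thus called more often than tiles elsewhere, although they differed by less in points. Members hold 60.6 covered CpGs on average and a tested tile 14.1, and the test works on the odds of methylation. How much of the order of these shares this makes was not tested.

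Among members called for the mean effect with both mutants above both wild types in all 3 tissues (790 members), the 8 with the largest rise went up by 13.9 to 16.1 points. None of the 8 was methylated above 11.1% in any wild-type library. The largest was an exonic member of Espnl, a gene of actin bundles in hair cells (chr1:93242001-93243000, 36 CpGs). Its level was 5.65% and 8.60% in the wild-type E10.5 embryos and 28.4% and 29.7% in the mutants. It was 10.1% and 8.85% against 21.2% and 22.0% in E14.5 liver, and 11.1% and 8.09% against 24.2% and 23.2% in E18.5 liver. The rise was seen in all 6 mutants and averaged 16.1 points (edgeR, adjusted p = 1.27e-18).

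At Gm7334 a TSS tile (chr17:50837001-50838000, 34 CpGs) was at 1.35% and 1.06% in wild-type E14.5 livers and at 19.2% and 15.6% in the mutants. In E10.5 embryo it was at 3.06% and 3.57% against 17.8% and 15.4%, and in E18.5 liver at 4.96% and 1.69% against 13.1% and 22.7%. The groups did not overlap in any tissue (14.7 points on average, edgeR, adjusted p = 2.74e-24).

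At Klhl35, of the kelch family (chr7:106616001-106617000, exon, 54 CpGs), the tissues were unlike in level. E10.5 embryos were at 5.04% and 11.01% in wild types and at 26.1% and 33.9% in mutants, the highest mutant mean of any member (30.003%). E14.5 livers were at 1.03% and 1.52% against 8.35% and 11.5%, and E18.5 livers at 3.02% and 1.35% against 17.1% and 9.54%. The test for unequal effects, on the odds scale, did not call it. Tmem30b, a subunit of phospholipid flippases (chr12:74646001-74647000, exon, 85 CpGs), was at 2.47% to 4.62% in the 6 wild-type libraries and 15.4% to 19.2% in the 6 mutants (13.9 points, edgeR, adjusted p = 1.78e-25).

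Large rises were also measured at an exonic member of Gm996 (chr2:25434001-25435000, 73 CpGs, 14.95 points) and at an intronic member of Ptprn2, a phosphatase-like protein of secretory vesicles (chr12:118398001-118399000, 37 CpGs, 14.9 points). The highest mutant mean of E14.5 liver was at an exon of Evx1, a homeobox gene beside the Hoxa cluster (chr6:52266001-52267000, 74 CpGs). It was 1.48% and 2.19% in wild-type E10.5 embryos and 2.61% and 4.204% in mutants, 9.15% and 10.49% against 25.9% and 28.8% in E14.5 liver, and 7.08% and 5.42% against 14.47% and 11.1% in E18.5 liver. The E10.5 difference was 1.57 points (edgeR, adjusted p = 0.135) and the E14.5 difference 17.6 points. Both mutants lay above both wild types in all 3 tissues, and the test for unequal effects did not call this member. A member between genes 14550 bp from a TSS of Vmn2r86 (chr10:129907001-129908000, 42 CpGs) reached 29.5% in mutant E10.5 embryos, from 9.20%, and 11.4% and 20.99% in the mutant livers.

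Rises from almost no methylation were rarer. Of 6526 members below 0.5% in the wild types of all 3 tissues, 62 rose and 2 fell. These were chosen on low wild-type levels, which leave little room for a fall. Of the 7520 below 0.5% in the genotype-blind choice 44 rose (0.585%) and 4 fell, where 4.23% of all tiles rose. Of the 6526, the 5 with the largest rise, listed after their values were seen, lay at only 3 genes. At Irs2, an adaptor protein of the insulin receptor, the member beside the promoter (chr8:11007001-11008000, 99 CpGs) was at 0.121% and 0.735% in wild-type E10.5 embryos and at 25.9% and 19.5% in mutants. In E14.5 liver it was at 0.276% and 0.168% against 4.55% and 8.48%, and in E18.5 liver at 0.183% and 0.192% against 17.8% and 6.59%. The mutants were thus far above the wild types in every tissue, but far from each other in E18.5 liver (13.5 points on average, edgeR, adjusted p = 3.23e-31). The next tile, with the TSS of Irs2 (chr8:11008001-11009000, 135 CpGs), was at 0.0587% to 0.226% in the 6 wild-type libraries and at 0.591% to 2.34% in the mutants. The sequence shown above for Irs2 is of the first of these tiles.

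The promoter of Pmaip1, a BH3 protein of the cell death pathway (chr18:66618001-66619000, 77 CpGs), was at 0.313% and 0.223% in wild-type E10.5 embryos and 8.53% and 9.06% in mutants. It was at 0.244% and 0.353% against 4.29% and 3.28% in E14.5 liver and at 0.421% and 0.397% against 2.05% and 1.57% in E18.5 liver (4.47 points on average, edgeR, adjusted p = 3.72e-24). At Fam84b the first of 2 tiles (chr15:60654001-60655000, 58 CpGs) had mutants that differed from each other, 4.29% and 1.30% in E10.5 embryo, where the wild types were at 0.0575% and 0.0392%. It was at 0.185% and 0.220% against 2.65% and 0.296% in E14.5 liver, and at 0.184% and 0.283% against 2.44% and 0.235% in E18.5 liver (edgeR, adjusted p = 0.109), so the groups overlapped in E18.5 liver. The second tile (chr15:60655001-60656000, 51 CpGs) had both mutants above both wild types in all 3 tissues, at 0.0785% to 0.499% in the 6 wild-type libraries and 0.607% to 2.11% in the 6 mutants (edgeR, adjusted p = 3.78e-09 for the mean effect and 0.0494 in E18.5 liver).

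**Figure D4:**
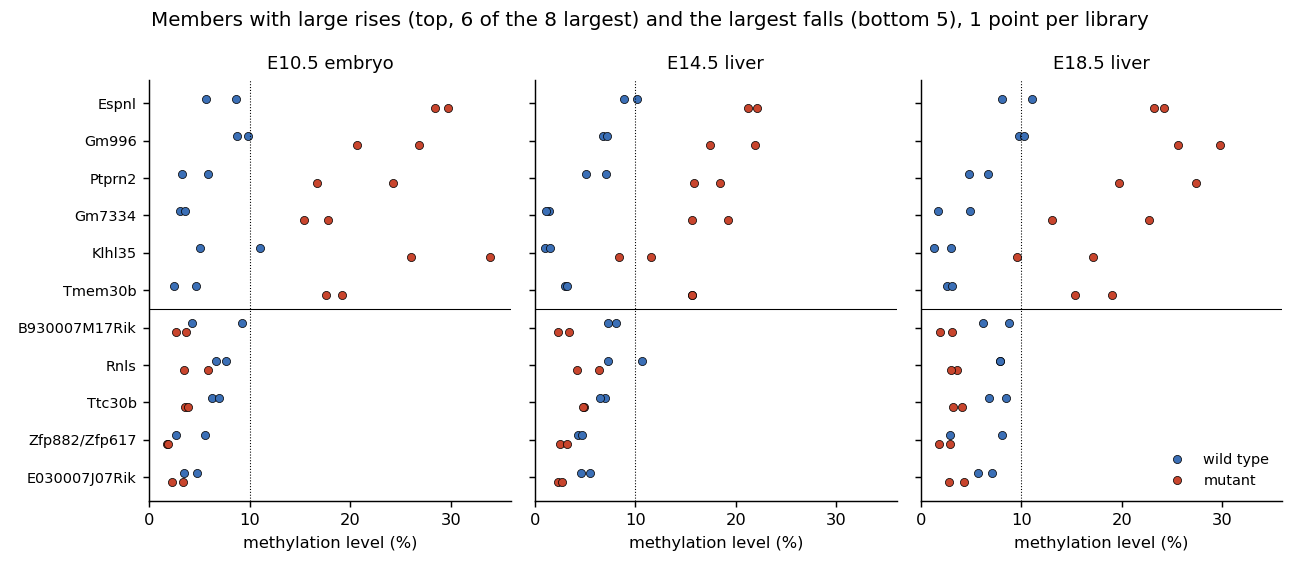
Methylation level (percent) in each of the 12 libraries for 6 of the 8 members with the largest rises (above the line) and the 5 with the largest falls (below it), 1 panel per tissue. Blue points are wild types and red points mutants, and the dotted line marks 10%. In each tissue both mutants lie to the right of both wild types for the 6 and to the left for the 5.

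Members that fell numbered 39. The rule kept wild types below 10%, so no fall could exceed 10 points, while rises had no such limit. Of the 39 members that fell, 15 had both mutants below both wild types in all 3 tissues. The largest was at the TSS of B930007M17Rik (chr3:138868001-138869000, 59 CpGs), at 9.26% and 4.26% in wild-type E10.5 embryos and 3.66% and 2.63% in mutants. It was at 7.22% and 8.11% against 2.33% and 3.40% in E14.5 liver and at 8.75% and 6.23% against 1.92% and 3.09% in E18.5 liver. The mean change was -4.47 points (edgeR, adjusted p = 5.44e-10). Next came the promoters of Rnls, a flavin-dependent oxidase (chr19:33466001-33467000, -3.57 points), of Ttc30b, a protein of intraflagellar transport (chr2:75776001-75777000, -2.90 points), and the tile shared by the TSSs of the zinc finger genes Zfp882 and Zfp617 (chr8:74432001-74433000, -2.36 points). The fifth was an exon of E030007J07Rik (chr19:40947001-40948000, -2.21 points). At Rnls the values were 6.69% and 7.62% against 3.50% and 5.88%, 7.27% and 10.6% against 6.42% and 4.202%, and 7.89% and 7.94% against 3.58% and 3.02% in the 3 tissues in turn.

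The 9 motifs searched were also counted in the 39 members that fell, after their values were seen and with no test. CCGGAAG was present in 21 of 39 (53.8%), against 21.9% of all members and 15.9% of those that rose. GCATGCGC was present in 9 of 39 (23.1%), against 5.62% and 2.85%. Among members at a protein-coding TSS the ETS letters were in 12 of the 22 that fell (54.5%) and in 26.5% of all, and the NRF1 letters in 6 of 22 (27.3%) and 7.20%. Of the other 7 motifs, GGGCGG was present in 69.2% of the 39 and 86.6% of all members, CCAAT in 71.8% and 63.3%, CACGTG in 35.9% and 20.05%, TATAAA in 30.8% and 20.2%, AGATAA in 20.5% and 21.5%, TGACGTCA in 7.69% and 3.28%, and AAGATGGCG in 7.69% and 3.702%. Mean GC content was 54.4% in the 39 and 59.7% in all members. The sequence shown for B930007M17Rik holds CCGGAAG.

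Gene lists were read by the tiles at their TSSs. Genes of CXXC proteins, DNA methylation and Polycomb complexes had a TSS in a member in most cases, and none of these members was called. Their median levels were 0.0738% to 1.33%, and in the genotype-blind choice 0.585% of members below 0.5% and 7.20% of those at 1% to 2% rose, so a count of 0 among so few tiles says little. Of 12 CXXC genes 10 had a TSS in a member, of 9 genes of DNA methylation 7, and of 20 Polycomb genes all 20, and 0 of these tiles rose or fell by edgeR's test. At an unadjusted p under 0.05, 1 CXXC tile was higher, 1 Polycomb tile was lower and 0 tiles of DNA methylation genes differed, and limma called 0 of any of them. Dnmt1, the maintenance methyltransferase, was at 2.15% to 3.86% over the 12 libraries (chr9:20757001-20758000), Dnmt3a and Dnmt3b, which methylate new sites, at 0% to 0.343%, and Ezh2, Eed and Suz12, the core of the second Polycomb complex, at 0% to 0.526%. Kdm2a, a demethylase of histone H3 that binds islands, was at 1.93% and 2.21% in wild-type and 3.99% and 3.75% in mutant E14.5 livers, with a mean difference of 0.920 points that missed the threshold (adjusted p = 0.0745). Fbxl19, Tet1 and Dnmt3l lay outside the members. The tile of Tet1, which starts methylcytosine oxidation, had 27 CpGs at 80.0% to 95.7% and was not called. That of Dnmt3l, a cofactor of the methyltransferases of new sites, had 19 CpGs and rose, from 51.5% and 44.3% to 58.8% and 67.3% in E14.5 liver and by 9.96 points on average (edgeR, adjusted p = 0.000235). The promoter of Rlf itself (chr4:120887001-120888000, 76 CpGs) was at 0.0387% to 0.359% in all 12 libraries and was not called.

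Housekeeping genes had few calls, but so had all members of such low levels. Of all members 6.99% rose, and in the genotype-blind choice 0.585% of those below 0.5% and 3.32% of those at 0.5% to 1%. A count of 1 in each list therefore says little about these genes. Of 55 ribosomal protein genes 50 had a TSS in a member, with medians of 0.0955% to 0.221% in every group, and 1 rose. This was Rps2, at 0.0974% in wild-type and 0.701% in mutant E10.5 embryos, 1.52% and 1.38% in E14.5 liver and 0.694% and 2.70% in E18.5 liver, so its groups were apart in E10.5 embryo alone, and limma called 0 of the 50. Of 31 proteasome genes 29 had a TSS in a member, with medians of 0.324% to 0.601% in every group, and 1 rose. This was Psmb6, a catalytic subunit, at 6.46% in wild types and 12.4% in mutants of E10.5 embryo. It was at 8.65% and 9.68% in E14.5 liver and 5.65% and 7.997% in E18.5 liver.

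Hox genes, which pattern the body axis, had more calls than any other list here, where 6.99% of all members rose. Of 39 genes 30 had a TSS in a member, and 13 of these rose and 0 fell for the mean effect: 6 of 11 in the Hoxa cluster, 1 of 5 in Hoxb, 3 of 6 in Hoxc and 3 of 8 in Hoxd, with a median difference of 0.508 points over the 30, where all members had a median of 0.0606. The median Hox tile was at 0.488%, 1.73% and 1.68% in the wild types of the 3 tissues, and of members at 1% to 2% in the genotype-blind choice 7.20% rose. None was lower even at an unadjusted p under 0.05, and limma called 8 as higher and 0 as lower. The largest was at Hoxa9 (chr6:52176001-52177000, 57 CpGs), from 2.43% to 10.7% in E10.5 embryo, 3.23% to 6.56% in E14.5 liver and 2.69% to 4.12% in E18.5 liver.

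Other transcription factors of development had a TSS in a member for 56 of 63 annotated genes, of which 5 rose and 0 fell (edgeR; 13 higher and 0 lower at an unadjusted p under 0.05, and limma called 4 as higher and 0 as lower). Otx2, a head and forebrain factor, went from 3.26% to 9.17% in E10.5 embryo, from 4.17% to 7.86% in E14.5 liver and from 4.36% to 9.21% in E18.5 liver (chr14:49281001-49282000). The others were Pax5 (1.83 points), Sox10 (1.79 points), Foxf1a (0.428 points) and Msx2 (0.408 points). Over all members 6.99% rose. Markers of blood and liver cells rarely had a TSS in a member: 8 of 23 erythroid, 7 of 24 hepatoblast and 0 of 10 macrophage, 0 of 8 megakaryocyte and 0 of 7 neutrophil genes did. The 1 call among them was Dlk1, a surface protein of fetal liver progenitors, at 0.527% and 1.39% in E10.5 embryo, 1.72% and 3.40% in E14.5 liver and 0.980% and 1.61% in E18.5 liver, wild type first. Of endothelial, mesenchymal and neural markers 1 of 7, 2 of 8 and 5 of 6 had a TSS in a member.

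The RNA of E14.5 liver was then set beside the tiles, in CPM, counts scaled by the size of the library. Total counts were 12928313 to 14621004 per library. Rlf RNA was at 70.2, 72.1 and 68.5 CPM in wild-type and 76.6, 79.9 and 67.3 CPM in mutant livers (edgeR, adjusted p = 0.646), which overlap, so its level does not check the genotype. Genes with a TSS in a member were mostly transcribed: 83.8% of 10762 averaged at least 1 CPM, with a median of 26.4 CPM, against 42.2% of 6039 genes whose TSS lay in another tested tile. Genes at a member that fell were transcribed in 22 of 23 cases (95.7%), while of 546 genes at a member that rose only 53.7% reached 1 CPM and the median was 1.45 CPM. Rises were more frequent at members of higher methylation level, as given above, and these shares of genes are not matched for that level.

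Few of these genes changed. Of 9176 that were tested 49 rose and 23 fell (edgeR, adjusted over 14183 genes), which is 0.534% and 0.251%, where all tested genes gave 0.698% and 0.691%. Livers of like replicate number deviated together in these same counts, which is the only ground used here for pairing them. With the number as a block 153 rose and 65 fell, 218 in all against 72. Calls over all 14183 genes likewise went from 197 to 460 with the block. With sex as a covariate instead, 59 rose and 19 fell, 78 in all, and calls over all genes numbered 208. Leaving out 1 liver in turn gave 15 to 84, with 15 without mutant replicate 1, 23 without wild-type replicate 1, 34 without wild-type replicate 3 and 36 without mutant replicate 2 or 3. DESeq2 gave 110 calls and edgeR without its filter 239, each among 10496 genes with a TSS in a member. In the main fit calls in other protein-coding genes were more frequent, 117 of 3288 (3.56%).

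Genes at members that rose were then read in RNA, where 0.785% of all tested genes with a TSS in a member were called, 0.736% of those at members not called and 1.39% of all tested genes. These RNA calls are from the fit without a replicate block. Of 319 genes at members that rose 3 rose and 4 fell (2.19%), with a median log2 fold change of -0.02. Of the 57 whose tile rose in E14.5 liver itself, 1 rose and 4 fell (8.77%), with a median of -0.05, and of the 22 at members that fell 0 were called by edgeR or DESeq2 (at an unadjusted p under 0.05 in edgeR, 2 were higher and 2 lower, with a median log2 fold change of 0.06).

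Crispld2, a secreted LCCL-domain protein (ENSMUSG00000031825), was at 2.06, 2.63 and 2.79 CPM in wild-type and 0.779, 1.08 and 0.629 CPM in mutant livers. Its TSS tile (chr8:122516001-122517000, 57 CpGs) was at 8.47% and 8.12% in wild-type and 18.3% and 14.7% in mutant E14.5 livers. RNA fell by 1.59 ± 0.28 (log2, SE; edgeR, adjusted p = 0.0172) and the groups did not overlap on either measure. Clic6, a chloride channel family protein, went the other way, at 2.22, 1.65 and 1.53 CPM against 3.74, 4.05 and 4.12 CPM (log2 change 1.14 ± 0.20, adjusted p = 0.0182), while its tile (chr16:92498001-92499000, 41 CpGs) went from 3.98% and 3.87% to 8.07% and 8.32%. RNA of both genes is at a few CPM.

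The other 3 fell by less. Ankrd43 RNA was at 83.7 ± 12.2 CPM in wild types and 53.6 ± 3.22 CPM in mutants (SD, n = 3 each; log2 change -0.64), with its tile at 0.464% and 1.84%. 2210016F16Rik was at 54.6 ± 5.72 and 38.3 ± 2.46 CPM (SD, n = 3 each; -0.51), with its tile at 0.873% and 2.44%. H2-Q6, a class I histocompatibility gene, was at 9.96 ± 0.611 and 6.30 ± 0.815 CPM (SD, n = 3 each; -0.66), with its tile at 6.53% and 12.97%. H2-Q6 has near-identical copies, so its reads and its tile are uncertain. Ston2 and Slc7a2 rose in RNA by 0.48 and 0.59 (log2), with tiles called for the mean effect that differed by 0.446 and 1.44 points. Irs2 was at 39.8 ± 6.08 CPM in wild types and 44.7 ± 6.86 CPM in mutants (SD, n = 3 each; edgeR, adjusted p = 0.604).

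**Figure D5:**
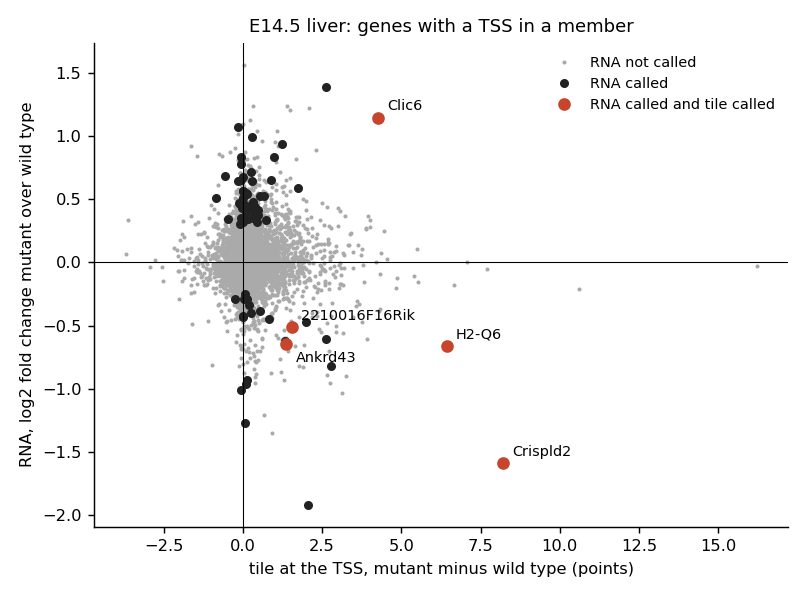
E14.5 liver: for each gene with a TSS in a member, the mutant minus wild-type methylation of the TSS tile (horizontal axis, percentage points, the tile with the largest difference where a gene has several) and the log2 fold change of RNA (vertical axis). Grey points are genes not called in RNA, black points genes called in RNA, and red points genes called in RNA whose tile was also called in E14.5 liver, 5 in all. Of the 5, Clic6 lies above 0 and Crispld2, H2-Q6, Ankrd43 and 2210016F16Rik below.

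Among all genes with a TSS in a member, the largest rises in RNA with groups apart and at least 1 CPM were Sox9, a factor of bile duct and cartilage cells (log2 change 1.39), Clic6, the early response gene Egr1 (1.07), Igsf11 (0.99) and Dab1, an adaptor of Reelin signalling (0.94). The largest falls were Atp2b2, a plasma membrane calcium pump (-1.92), Crispld2, Neurl1a (-1.27), Prkd1 (-1.01) and Fam169a (-0.96). Sox9, Clic6, Dab1, Atp2b2, Crispld2, Neurl1a and Prkd1 averaged no more than 4.09 CPM in either genotype, so their changes rest on low counts. The lowest Egr1 mutant, at 35.1 CPM, was near the highest wild type, at 30.9 CPM. Apart from Clic6 and Crispld2, no gene listed had a TSS tile called for the mean effect by edgeR. The tiles of Egr1, Neurl1a, Prkd1 and Fam169a were at 0.383% or less in all 12 libraries, while a tile of Sox9 was at 3.08% in wild-type and 5.69% in mutant E14.5 livers and that of Atp2b2 at 3.52% and 5.57%. Dnmt3a RNA was higher in mutants, at 108 ± 6.65 against 135 ± 4.57 CPM (SD, n = 3 each; log2 change 0.32, edgeR, adjusted p = 0.0319), and its TSS tile of 142 CpGs was at 0.0263% to 0.159% in all 12 libraries.

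Cell makeup was checked by markers. Summed CPM of 23 erythroid markers was 39264 to 68585 in wild-type and 47041 to 51232 in mutant livers, and all 23 were at 1 CPM or more. The 24 hepatoblast markers summed to 60955 to 71934 and 74277 to 86953 CPM, 1 of them called as higher in mutants, and the 8 megakaryocyte markers to 541 to 574 and 662 to 716 CPM, 1 called as higher. The 7 neutrophil markers summed to 562 to 805 and 503 to 594 CPM, 4 called as lower, the 7 endothelial markers to 295 to 324 and 333 to 377 CPM, and the 8 mesenchymal markers to 841 to 1078 and 927 to 1358 CPM. Macrophage (711 to 745 and 718 to 731 CPM) and neural markers (21.2 to 32.7 and 24.4 to 34.1 CPM) overlapped. Over all tested genes 0.698% rose and 0.691% fell. Hepatoblast, megakaryocyte and endothelial sums thus did not overlap between genotypes, and how often sums of other gene sets would not overlap was not tested. In bulk livers fewer cells of a type and less RNA per cell cannot be told apart, and the part of cell makeup in the tile and RNA differences was not tested.

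The limits of the rule cut through a continuous range. Among tiles below 10% in wild types, the 374 with 30 covered CpGs averaged 2.19%, 2.92% and 2.76% in the wild types of the 3 tissues and the 375 with 29 averaged 2.47%, 3.16% and 3.02%. The members closest to 10% were Gm996 (9.9994% in wild-type E18.5 liver) and Parn (9.99% in E14.5 liver), and the nearest tiles beyond it were at the TSSs of Tmem178 and Pcnxl2 (10.0009% each, in E14.5 liver and E10.5 embryo). Mutants of Gm996 were at 27.7%, of Parn at 10.9%, of Tmem178 at 12.5% and of Pcnxl2 at 10.99% in the same tissues.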

How the data were processed

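Libraries were made by the authors with the TruSeq kit, converted with bisulphite in 2 rounds, and sequenced as paired ends. The authors aligned the reads with Bismark and Bowtie2 to mm9 carrying FVB substitutions, dropped duplicate pairs and joined both strands of a CpG. What they deposited are whole-number counts of unconverted and converted reads per CpG and a percent rounded by the authors, which was not used. RNA reads were aligned by the authors with Tophat, and the deposited counts per Ensembl gene were made with htseq-count without strand.

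Tile levels were summed unconverted reads over all reads of the CpGs that every one of the 12 libraries covered 6 times or more. Tiles were tested with edgeR 4.0.16 (glmQLFit, 1 intercept per library, a genotype term per tissue, R 4.3.3) on both counts, over 574594 tiles, with the dispersion taken from 5000 of them. Genes were tested with edgeR after TMM scaling and its default filter. Alternatives used limma 3.58.1 and DESeq2 1.42.0. Sequences and motifs were read from NCBIM37 with samtools 1.23.1, positions from GENCODE vM1, which named 37205 of 37991 genes. Scripts were tested on simulated data. Named tiles are the 8 largest rises and 5 largest falls with groups apart in all tissues, the 3 highest mutant levels of each tissue, the 3 largest rises among unequal effects, the first genes of each list, and the tiles nearest the limits, and 2 of the 8 rises and 1 sequence of the lists are not reported here. Named genes are Rlf, the 5 largest rises and falls with groups apart and at least 1 CPM, and genes with a TSS in a named tile. RNA values are not printed for all of the last. Members, lists and rules were chosen with earlier results of these data known, and some names were added after their values were seen: the members at Irs2 (with its sequence), Pmaip1 and Fam84b, the longest runs, the called members of gene lists (Rps2, Psmb6, Hoxa9, Otx2, Pax5, Sox10, Foxf1a, Msx2 and Dlk1), and Ankrd43, 2210016F16Rik, H2-Q6, Ston2 and Slc7a2, called genes at called members.

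For RNA, livers of like number departed from their group means in the same way (r = 0.155, 0.220 and 0.427 across 14183 genes). The pairing was taken from this, and counts with a block stand beside the RNA result. Replicate 3 is female in each genotype. The E14.5 bisulphite livers are littermates per the authors, and p-values refer to the spread between these embryos and livers. In the tile tests most of that spread was shared between tiles, with 69.7 degrees of freedom taken from all tiles against 6 from the tile itself. A tile p-value therefore weighs the spread of its own libraries only in part, also where the mutants lie far apart. Depth was 17.2 to 36.1 reads per autosomal CpG and 12928313 to 14621004 counts per RNA library.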

Additional observations from a re-analysis of the deposited data

Results flagged for a closer look

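The effect of genotype differed between tissues at 6 members (edgeR, F test of equal effects, adjusted over all tiles), of which the 3 with the largest rise in 1 tissue are given. At an exon of Ccdc117 (chr11:5441001-5442000, 61 CpGs, adjusted p = 0.0382) E10.5 embryos were at 4.16% and 4.88% in wild types and 10.98% and 11.3% in mutants, while E14.5 livers were at 6.19% and 5.53% against 5.41% and 6.24% and E18.5 livers at 7.72% and 8.63% against 8.04% and 4.85%. At the promoter of Hoxa7 (chr6:52167001-52168000, 70 CpGs, adjusted p = 0.00516) the level went from 0.191% to 4.36% in E10.5 embryo, from 1.56% to 2.91% in E14.5 liver and from 0.485% to 1.97% in E18.5 liver, so that mutants were higher in each tissue and by most in the embryo. At an intron of Gm3629 (chr14:7259001-7260000, 52 CpGs, adjusted p = 0.0449) it went from 2.27% to 5.21% in E10.5 embryo (adjusted p = 0.0313) and from 2.08% to 3.35% in E14.5 liver (adjusted p = 0.674). In E18.5 liver it was at 7.47% and 8.28% in wild types and at 2.41% and 5.50% in mutants, a difference that was not called (adjusted p = 0.106). Gm3629 had the lowest depth of the 3, with 15.2 to 25.7 reads per CpG.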

How the results depend on the processing

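The members numbered 13906 to 21339 under other limits, tile offsets, coverage and choices, and mutants were higher on average in every tissue where the levels were recomputed (coverage of 10 reads, mean of CpG levels, lambda subtracted, both other choices, a limit of 5% and 1 library left out). They were not recomputed for other CpG minimums, a limit of 20%, shifted tiles or summed reads. Choosing members on the mutant means gave differences of 0.212, 0.277 and 0.138 points in the embryo and then in the liver at E14.5 and E18.5, and a limit of 5% gave 0.190, 0.257 and 0.144, against 0.323, 0.366 and 0.229. In E14.5 liver the mean of CpG levels gave 0.299 and the genotype-blind choice 0.316. Leaving out 1 library in turn gave 0.259 to 0.388, 0.348 to 0.384 and 0.126 to 0.332 points in the 3 tissues. Calls of members were 387, 312, 205 and 1268 (E10.5, E14.5, E18.5 and mean effect). A minimum difference of 5 points left 138, 95, 93 and 105, and one of 15 points 10, 2, 7 and 1. With limma on transformed levels they were 178, 61, 98 and 722, and with the 4 livers of E14.5 alone 743. With 1 library left out they were 130 to 379, 95 to 143, 101 to 264 and 860 to 1599, fewer by over 1.5 times without E10.5 wild-type replicate 1 (130) or mutant replicate 2 (221), E14.5 wild-type replicate 1 (95) or 2 (119) or mutant replicate 1 (143) or 2 (125), or E18.5 wild-type replicate 1 (117), 2 (101) or mutant replicate 1 (117). The remaining library of a group was then assumed to vary like the others. Bisulphite samples of like number did not deviate together (r = 0.0348, 0.0116 and -0.0129 over all tiles, and 0.0792, 0.0795 and 0.00648 over members), and with a replicate block the calls were 427, 348, 238 and 1318. For RNA of genes with a TSS in a member, DESeq2 gave 110 calls, no filter 239 and the replicate block 218, against 72. Sex as a covariate gave 78, and leaving out 1 liver 15 to 84. Except where a setting tests fewer samples or adds a minimum, the cause was not tested. Depth limits the lowest levels, which approach the unconverted share of lambda DNA.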
